A study of Drosophila melanogaster with 3 samples.

Results

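The genes described are cact and 8 further genes of the Toll pathway of the fruit fly (spz, nec, Tl, Myd88, tub, pll, dl and Dif), 9 of the 13945 protein-coding genes in the annotation used. They were chosen by name for their place in the pathway, with earlier results of these data known. Counts over these genes therefore describe them and are not independent evidence. Every ChIP-seq peak in each gene or within 5 kb of it was collected. The assay was ChIP-seq, in which DNA bound by a protein is precipitated with an antibody and sequenced, applied to the transcription factor Jumeau in 1 group of 3 biological replicates. Each replicate was whole Drosophila melanogaster embryos of both sexes aged 0 to 24 hours, from the strain jumu-MiMIC-GFP, in which an eGFP exon placed in an intron of jumu gives a Jumeau-eGFP fusion protein. The fusion protein was precipitated with an antibody against GFP from chromatin sheared to 200 to 800 bp. Without a control sample among those analysed, signal of the antibody or of accessible chromatin and binding of Jumeau cannot be told apart. Whole embryos of all these ages were mixed, so a peak carries no information on the tissue or stage it came from, and all 3 replicates came from 1 fusion line.

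The authors' optimal list, the peaks that passed their test of agreement between replicates, held 3845 peaks in the dm6 build. The authors' relaxed lists held 29812 peaks for the pooled replicates and 30000 for each replicate. Each peak carries a signal, a value assigned by the authors' peak caller. It ran from 112.0 to 3722 in the optimal list, with a median of 180.6, and started at 34.3 in the pooled list. The sequencing depth is unknown. Exactly the 3845 strongest pooled peaks made up the optimal list, so a gene without an optimal peak is a gene whose pooled peaks were weaker than 112.0. To set replicates side by side, the signal of a replicate was divided by its median at matched optimal peaks (74.8, 58.1 and 54.5 in replicates 1, 2 and 3), which gives a relative signal of 1 for a typical optimal peak. A replicate peak was matched when its summit lay within 100 bp of the optimal summit.

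Jumeau belongs to the forkhead family of DNA-binding proteins and is known for roles in the embryonic heart, the body wall muscles and neural lineages. The Toll pathway sets the dorsoventral axis of the early embryo and later drives the immune response to fungi and many bacteria. The processed ligand Spätzle (spz) binds the receptor Toll (Tl), whose cytoplasmic domain gathers the adaptors Myd88 and Tube (tub) and the kinase Pelle (pll). The signal destroys Cactus (cact), an IκB protein that keeps the Rel transcription factors Dorsal (dl) and Dif in the cytoplasm. Necrotic (nec) is a serpin that restrains the extracellular protease cascade which activates Spätzle.

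The stretches of genome printed here come from optimal peaks near the start sites of cact, pll and tub, and the last lies next to cact. No stretch of Myd88 is printed. All are printed 5′ to 3′ on the plus strand of dm6, with capitals at the words found in a search described further down. The first is the whole 213 bp interval of the strongest peak among the 9 genes, in cact (chr2L:16325710-16325922). The second runs from the start site of pll to that of its neighbour TfIIA-L (chr3R:27253182-27253430). It stops short of the second optimal summit there, at position 27253452. The next one ends just before the start site of tub (chr3R:4387674-4387741). The last is centred on the optimal peak upstream of cact, next to mRpL4 (chr2L:16329204-16329304).
cact: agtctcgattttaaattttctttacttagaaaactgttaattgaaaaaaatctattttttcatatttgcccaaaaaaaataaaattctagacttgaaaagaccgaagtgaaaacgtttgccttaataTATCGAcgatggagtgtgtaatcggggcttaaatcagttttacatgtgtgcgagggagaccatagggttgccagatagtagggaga
pll to TfIIA-L: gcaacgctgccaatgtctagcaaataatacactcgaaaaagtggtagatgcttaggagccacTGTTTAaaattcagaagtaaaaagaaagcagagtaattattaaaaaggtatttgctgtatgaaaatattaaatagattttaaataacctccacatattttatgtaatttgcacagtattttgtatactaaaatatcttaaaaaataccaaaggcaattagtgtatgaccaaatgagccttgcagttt
tub: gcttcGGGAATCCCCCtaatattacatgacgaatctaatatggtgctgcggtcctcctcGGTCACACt
cact upstream: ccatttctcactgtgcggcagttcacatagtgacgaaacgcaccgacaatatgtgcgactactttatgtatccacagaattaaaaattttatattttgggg

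Optimal summits lay at most 1 kb from a start site in 4 of the 9 genes: the inhibitor gene cact, the adaptor genes Myd88 and tub, and the kinase gene pll. Over all protein-coding genes the share was 22.4%. The ligand gene spz, the serpin gene nec, the receptor gene Tl and both Rel factor genes had none there. Widening the search to the gene and 5 kb on either side added Dif, which gave 5 of 9 genes against 46.2% of all genes. Together these 5 genes held 10 optimal peaks in 8 separate intervals. In the pooled list, summits at most 1 kb from a start site were present in 8 of 9 genes, all but nec, and in 63.4% of all genes. All 9 genes had a pooled summit in the gene or within 5 kb, as did 91.4% of all genes, so a pooled peak that near was found at most genes.

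**Figure D1:**
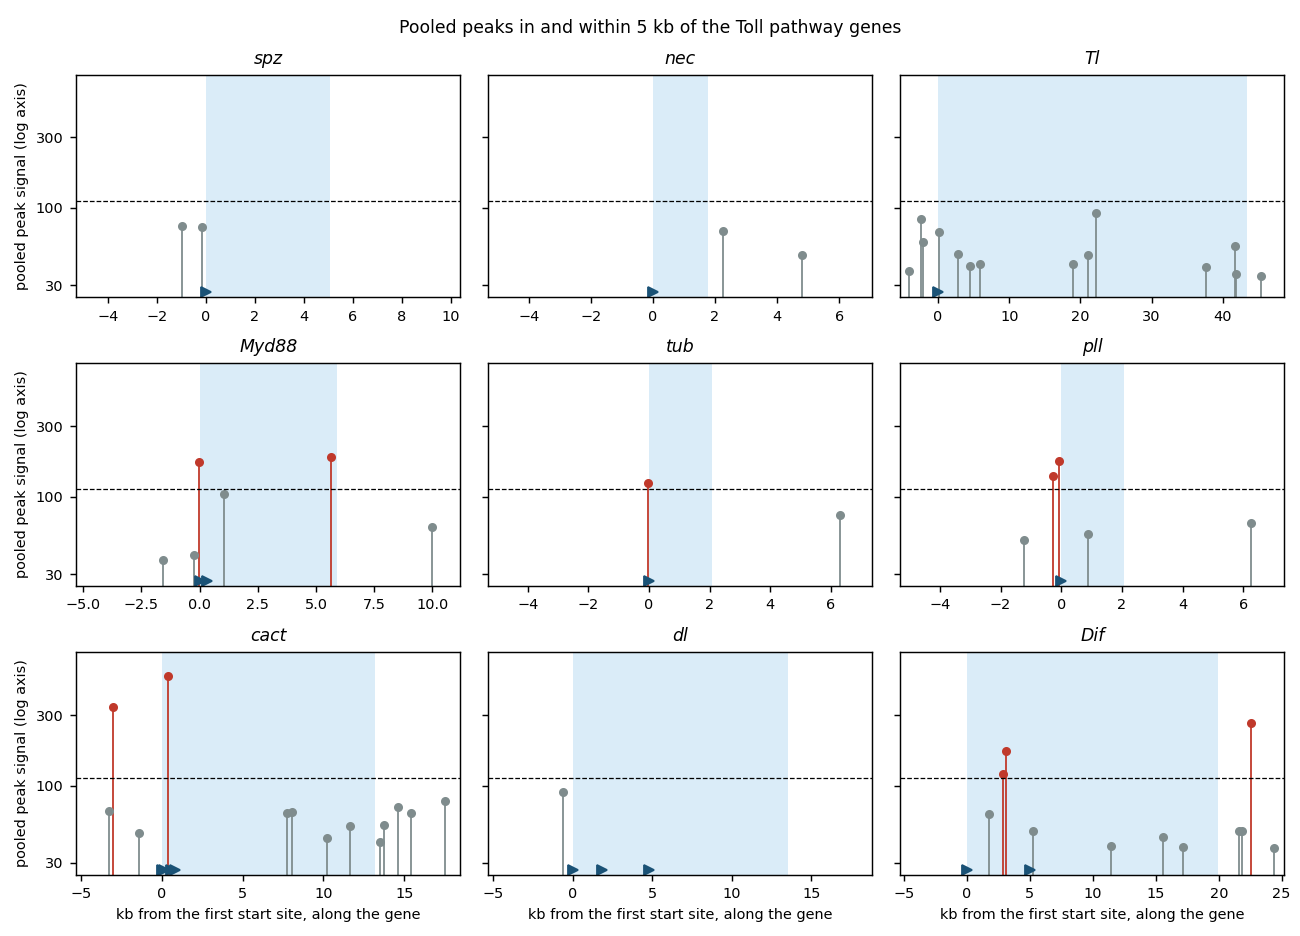
Signal of every pooled peak (vertical, log axis, the authors' value) against its position in kb from the first start site, along the direction of transcription, for the 9 genes. The shaded span is the gene, arrowheads are start sites, red peaks are in the optimal list, grey peaks are not, and the dashed line is the weakest optimal signal, 112.0. The tallest peak of all panels, 551, lies between the start sites of cact.

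The cact gene (FBgn0000250, chr2L:16313036-16326207, minus strand) has 4 annotated start sites within 787 bp. Its main optimal peak had its summit at position 16325838 and a signal of 551, rank 238 of 3845. The summit lay between the start sites. It was 213 bp upstream of the start site at 16325625 and 263 bp downstream of the one at 16326101, in the first intron of the transcripts that begin farthest upstream. The interval of the peak contained 0 of the 4 start sites. Signals at this peak were 253, 143 and 162 in replicates 1, 2 and 3, at ranks 173, 343 and 217 of 30000. Relative to the typical optimal peak they were 3.39, 2.47 and 2.98, or 2.94 ± 0.46 (SD, n = 3). All 3 replicates thus placed this peak well above a typical optimal peak. A stronger pooled summit at that distance of 1 kb was found at 250 protein-coding genes (1.79%).

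A further optimal peak lay 3047 bp upstream of cact, with a summit at position 16329254, a signal of 338 and rank 665. Its nearest start site was that of mRpL4, a gene for a mitochondrial ribosomal protein, at 122 bp, and CG4440 followed at 671 bp. Replicate signals were 132.8, 110.6 and 90.2, a relative signal of 1.78 ± 0.124 (SD, n = 3). Each replicate was above a typical optimal peak, and the peak lies nearer to mRpL4 than to cact. The other 11 pooled peaks around cact had signals between 41.3 and 78.3. None reached the optimal list, and 8 of them lay nearest to the start site of fzy, cni or Syx5, neighbours beyond the 3′ end of cact.

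The kinase gene pll (FBgn0010441, chr3R:27251131-27253182, minus strand) shares its upstream region with TfIIA-L, which encodes a subunit of the general transcription factor TFIIA and is transcribed away from it. The start sites are 248 bp apart, as printed above, and TfIIA-L has further start sites, so that its longest transcripts also span pll. There were 2 overlapping optimal peaks here, with summits 203 bp apart. The first, at position 27253249, lay 67 bp upstream of pll with a signal of 174 (rank 2027). It was matched by 75.3 in replicate 1 and 60.6 in replicate 2 and by no peak in replicate 3, for a relative signal of 1.02 ± 0.0253 (SD, n = 2). The other, at position 27253452, lay 22 bp from the start site of TfIIA-L and 270 bp from that of pll, with a signal of 138 (rank 2875). Its replicate signals were 45.9, 38.4 and 59.4, or 0.789 ± 0.262 relative (SD, n = 3). Replicates 1 and 2 were therefore stronger on the pll side, while replicate 3 had its peak on the TfIIA-L side. The distance between the start sites lies within the range of fragment lengths, so the signal of the 2 genes was not separated.

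Myd88 (FBgn0033402, chr2R:9302823-9308722, minus strand) had an optimal peak at either end. The peak at the start, with its summit 35 bp upstream of the start site at position 9308757, had a signal of 171 (rank 2095). Its replicate signals were 77.4, 66.6 and 22.0, or 0.862 ± 0.401 relative (SD, n = 3). Replicate 3 was low here, and its strongest peak within 1 kb of a start site was instead a coding-sequence peak of 37.9, at 747 bp. In the pooled list that coding-sequence peak had a signal of 104.1 (rank 4277), just below the optimal list, and replicate 2 had no match for it. The second optimal peak lay in the 3′ UTR, 244 bp inside the end of the gene and 5321 bp from the nearest start site of any gene, at position 9303067. Its signal was 186 (rank 1844), with 62.7, 54.2 and 69.8 in the replicates, or 1.02 ± 0.233 relative (SD, n = 3). The peak at the end of Myd88 was at ranks 2514, 2055 and 1257 of 30000 in the replicates. Relative to a typical optimal peak it was below 1 in replicates 1 and 2 (0.839 and 0.932) and above 1 in replicate 3 (1.28).

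The tub gene (FBgn0003882, chr3R:4387742-4389813, plus strand) had 1 optimal peak, with its summit 18 bp upstream of its single start site at position 4387724. The signal was 123, at rank 3351 near the foot of the optimal list. Replicate signals were 39.6, 29.0 and 40.9, at ranks 4862, 6185 and 3201, or 0.594 ± 0.137 relative (SD, n = 3). All 3 replicates were below a typical optimal peak. No other start site was nearer.

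The 2 Rel factor genes lie next to each other on chromosome arm 2L, with 3669 bp between the end of dl and the distal start site of Dif. Dif (FBgn0011274, chr2L:17413248-17433161, minus strand) encodes the Rel factor of the adult antifungal response. It had 3 optimal peaks, none within 1 kb of its 2 start sites. The strongest of them, with a signal of 264 (rank 1055) at position 17410577, lay 2671 bp beyond the 3′ end, and 64 bp from the start site of CG15141 and 171 bp from that of Polr2J, a gene for a subunit of RNA polymerase II. Its replicate signals were 105.7, 96.6 and 52.4, or 1.35 ± 0.355 relative (SD, n = 3). This peak lies nearer to both neighbouring genes than to Dif.

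The other 2 optimal peaks of Dif overlapped each other inside the gene, with summits 216 bp apart between its start sites. The summit at 17430099, with a signal of 170 (rank 2102), lay 1900 bp upstream of the inner Dif start site and 393 bp downstream of the start of lncRNA:CR44409, inside the exon of that short noncoding gene. Replicate signals were 54.7, 66.5 and 47.5, or 0.916 ± 0.210 relative (SD, n = 3). The summit at 17430315 had a signal of 120 (rank 3487), with 44.4, 39.9 and 25.4 in the replicates, or 0.582 ± 0.111 relative (SD, n = 3). In every replicate the first of these summits was the higher. At the start sites of Dif itself the strongest pooled peak had a signal of 49.4 (rank 15222 of 29812), close to the median of the whole pooled list.

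The dl gene (FBgn0260632, chr2L:17436830-17450364, minus strand), whose product is the morphogen of the dorsoventral axis, had a single pooled peak in its whole span and 5 kb on either side. That peak had a signal of 90.2 (rank 5280) at 609 bp upstream of the distal start site, and 479 bp from the start of lncRNA:CR46204, within whose exon it lies. Replicate signals were 33.9, 26.9 and 28.1, a relative signal of 0.478 ± 0.0337 (SD, n = 3). The replicates were close to each other, and each was below a typical optimal peak. The nearest optimal peak, the weaker of the pair inside Dif, lay 6515 bp from dl, just outside the 5 kb limit. Inside the limit, the farthest optimal peak was that of mRpL4, 3047 bp from cact.

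The receptor gene Tl (FBgn0262473, chr3R:26799041-26842403, plus strand) is the longest of the 9 at 43363 bp and held the most pooled peaks, 14, none of them optimal. Its strongest peak, 92.7 (rank 5067), lay in an intron 22190 bp from the start site, with replicate signals of 34.6, 34.8 and 30.2, or 0.539 ± 0.0696 relative (SD, n = 3). At the start site the pooled signal was 68.9. The nearest optimal peak was 11457 bp away.

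The ligand gene spz (FBgn0003495, chr3R:27064990-27070070, minus strand) had 2 pooled peaks, both upstream: 76.1 (rank 6855) at 993 bp and 74.0 at 169 bp. At the former the replicates gave 23.1, 28.2 and 22.8, or 0.404 ± 0.0897 relative (SD, n = 3). The nearest optimal peak was 42385 bp away, the largest such distance among the 9 genes. The serpin gene nec (FBgn0002930, chr2R:7156477-7158241, minus strand) had no pooled summit within 1 kb of its start site. Its strongest pooled peak in the 5 kb around it, 70.0 (rank 7870), was 2253 bp from the nec start site and only 564 bp from that of Spn43Ad, a neighbouring serpin gene. It was matched by 23.8 in replicate 1 and 25.8 in replicate 2, and by no peak in replicate 3.

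**Figure D2:**
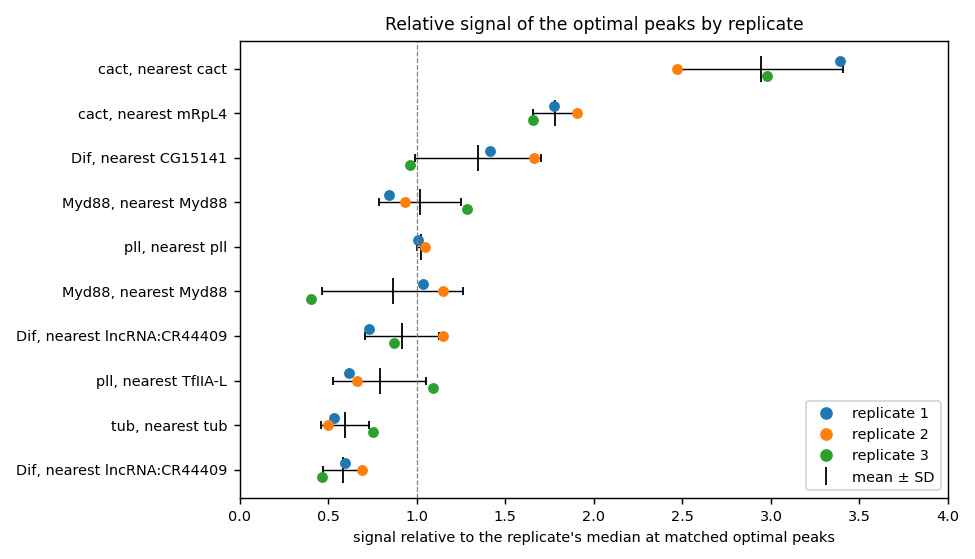
Relative signal (horizontal, replicate signal divided by the replicate's median at matched optimal peaks) of the 10 optimal peaks, one row each, ordered by pooled signal, with the gene whose start site is nearest. Coloured points are replicates and the black bar is the mean ± SD; the dashed line is a typical optimal peak. The 3 points of the cact peak, 2.47 to 3.39, lie above all others in the plot.

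Of the 10 optimal peaks, 8 were within 500 bp of the start site of some gene, 1 was in an intron and 1 in a 3′ UTR. For 5 of them the nearest start site was that of the Toll pathway gene (cact, pll, tub and both peaks of Myd88), and for the other 5 it was that of another gene. Matching peaks were present in all 3 replicates for 9 of 10, against 88.7% of all optimal peaks, and the exception was the pll-side peak. With summits required to lie within 50 bp, 4 of 10 were matched in all 3 replicates, against 61.7% of all optimal peaks. Within 200 bp all 10 were, against 96.8%, so the exception depended on the distance. The median signal of the 10 was 172, slightly under the 180.6 of the whole list. The authors' −log10 q value was at the list's ceiling of 3.67 for 7 of the 10, a value shared by 2315 optimal peaks, so it did not rank them. The 46 weaker pooled peaks of the 9 genes had signals of 34.5 to 104.1 and a median of 51.9, beside 47.0 for all 25967 weaker pooled peaks. All 3 replicates matched 10 of the 46 (21.7%), beside 13.4% of all weaker pooled peaks. Of the 46, 17 lay in coding sequence, 15 in introns and 9 within 500 bp of a start site.

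The genes were also ordered by the strongest peak within 1 kb of a start site in each replicate, wherever in that window it lay. The relative signals were 2.94 ± 0.46 for cact, 1.05 ± 0.042 for pll, 0.959 ± 0.235 for Myd88 and 0.594 ± 0.137 for tub (SD, n = 3 each). They were 0.478 ± 0.0337 for dl, 0.442 ± 0.0589 for spz and 0.413 ± 0.0743 for Tl (SD, n = 3 each), and 0.309 ± 0.0554 for Dif, in 2 replicates only. The lowest value of cact, 2.47, was above the highest of any other gene, 1.15 in Myd88. Below cact, the ranges over replicates of each gene and the next in this order overlapped. Within replicates, however, tub was above dl in all 3 (0.530, 0.500 and 0.751 against 0.454, 0.464 and 0.517). Tl was above Dif in replicates 1 and 3, where Dif had a peak. For the other neighbours below cact, the order changed between replicates. Among the 3845 strongest peaks of each replicate, replicates 1 and 2 had Myd88, pll and cact within 1 kb (3 of 9), beside 22.5% and 21.3% of all genes. Replicate 3 had the same 3 genes and tub (4 of 9), beside 22.9%.

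**Figure D3:**
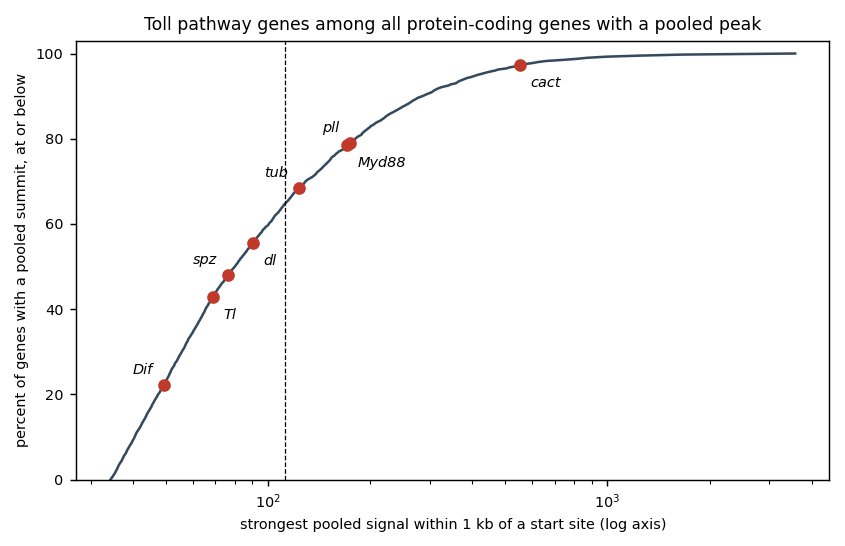
Cumulative curve over the 8845 protein-coding genes with a pooled summit no more than 1 kb from a start site: percent of genes (vertical) whose strongest signal there (horizontal, log axis) is at or below a value. Red points place 8 of the 9 genes, nec having no such summit, and the dashed line is the weakest optimal signal, 112.0. The point of cact lies near the top of the curve, with 250 genes above it, and Dif lies lowest, at 49.4.

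Against all 13945 protein-coding genes, a stronger pooled summit no more than 1 kb away was found at 1.79% of genes for cact, 13.3% for pll, 13.7% for Myd88 and 20.1% for tub. The share was 28.2% for dl, 33.0% for spz, 36.2% for Tl and 49.3% for Dif. The median of the 8 genes was 107, and that of all 8845 genes with such a summit was 79.9, with an upper quartile of 152. The signal of cact alone was far above that quartile, and those of pll and Myd88 were slightly above it.

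The count of 4 genes depended on how strict the list was, and cact alone stayed in the strictest ones. With the 1922 strongest optimal peaks, or with the 2213 optimal peaks found among the 3845 strongest of each of the 3 replicates, cact was the 1 gene of 9 with a summit at most 1 kb from a start site. The shares of all genes were then 12.7% and 14.2%. Over the gene and 5 kb on either side, Myd88 (through its 3′ UTR peak), cact and Dif remained under both settings, 3 of 9, beside 29.4% and 32.1% of all genes, so this wider count was near its background. For Dif the peak at CG15141 remained under both, the peak at 17430099 inside the gene under the second alone, and the one at 17430315 under neither.

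A wider set of 85 genes was counted in 9 lists by their role in the pathway. These lists were drawn with earlier results of these data known, so their counts describe the lists and are not independent evidence. Over all lists, 19 of 85 genes (22.4%) had an optimal summit at most 1 kb from a start site, the same share as in all protein-coding genes, and without the 9 genes above the count was 15 of 76 (19.7%). For 4 of the 19, another gene's start site was nearer to the summit. The genes with a peak were not spread evenly over the lists.

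Of the 12 genes for cytoplasmic signalling and its regulators, 10 had such a peak, beside 22.4% of all protein-coding genes. Among the 10 were Myd88, tub, pll and cact, whose peaks are described above, so the count in part repeats those results. The highest signal was that of Gprk2, a kinase known to bind Cactus, at 1865 (rank 12, relative signal 9.94 ± 1.37, SD, n = 3), but the summit was 83 bp from the start site of PNPase and 588 bp from that of Gprk2. Deaf1, a transcription factor for Toll-dependent antimicrobial genes, had a signal of 310 at 69 bp. The peak of tamo, whose product restrains the nuclear entry of Dorsal, had a signal of 308 at 125 bp, and that of Traf6, the fly relative of the mammalian ubiquitin ligase of that name, had 266 at 65 bp. The peak of mop had a signal of 136 at 47 bp. The peak assigned to cactin, a binding partner of Cactus, had a signal of 117 and lay nearer to Pp4-19C. With the 1922 strongest optimal peaks the count was 5 of 12, beside 12.7% of all genes, and leaving out 1 replicate in turn gave 5 to 7 of 12, beside 15.3% to 16.5%.

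In the lists of genes that act outside the cell, at its surface or downstream of the Rel factors, the counts for optimal summits at most 1 kb from a start site were as follows. The share of all protein-coding genes at this distance was 22.4%. None of the 6 Spätzle family ligands and none of the 18 immune target genes had an optimal summit that near. Of the 15 proteases and recognition proteins, 1 had one: modSP, a protease at the head of the cascade, at 129. Among the 5 serpins it was Spn27A alone, at 146, with CG34310 nearer to the summit. Of the 13 Dorsal target genes of the early embryo it was brk alone, a repressor gene activated by Dorsal in the lateral embryo, at 205 and 849 bp from its start site. The 3 Rel factors had none, and 3 of the 8 Toll family receptors had one: Toll-7 at 297, 18w at 148 and Tollo at 119. Of the 5 SUMO pathway genes, 3 had one: Sumo at 154, Ulp1 at 148 and Uba2 at 254, the last nearer to Cds. These counts belong to that distance. In the gene or within 5 kb, 6 of 15 proteases and recognition proteins, 3 of 5 serpins and 6 of 13 Dorsal targets had an optimal peak, beside 46.2% of all genes. The count there was 1 of 6 for the Spätzle family and 1 of 18 for the immune targets. It was 2 of 3 for the Rel factors, 3 of 8 for the Toll family receptors and 4 of 5 for the SUMO pathway genes.

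**Figure D4:**
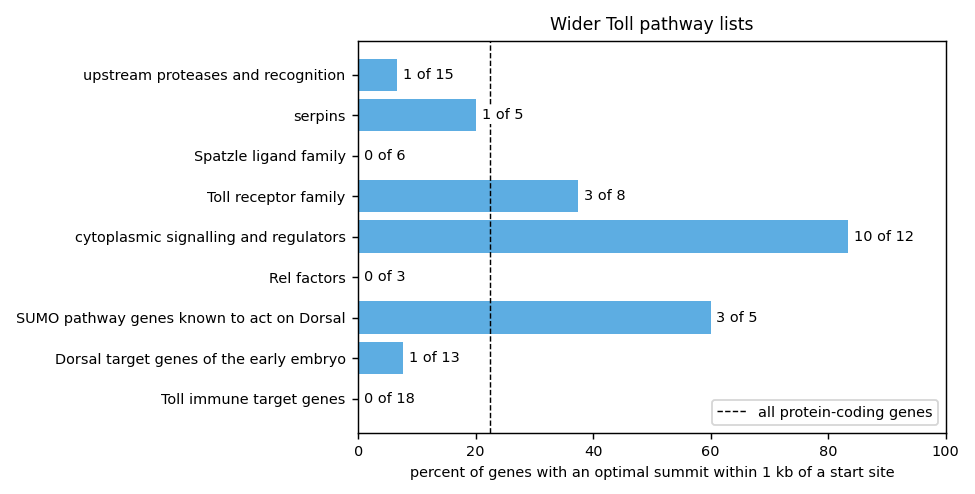
Percent of the genes of each wider Toll pathway list (horizontal) with an optimal summit at most 1 kb from a start site, with the counts beside the bars. The dashed line is the share of all protein-coding genes, 22.4%. The bar of cytoplasmic signalling, 10 of 12, is the longest, and 3 bars are at 0.

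The sequence under the 10 optimal summits was searched on both strands for 11 words, in windows reaching 50 bp to either side of the summit. The share of all 3845 optimal windows with a word, and of windows 500 bp to either side, is given as background. The forkhead word TGTTTAC was in 0 of the 10 windows, beside 3.56% of optimal windows and 2.05% of flanking windows. Its shorter core, TAAACA, which is part of the longer word read on the other strand, was in 1, the pll-side peak. It reads TGTTTA on the plus strand, the capitals in the stretch between pll and TfIIA-L, and starts 5 bp before the summit. The core was in 13.4% of optimal windows and 9.01% of flanking windows. The alternative forkhead word GACGC was in 1 window, the peak at TfIIA-L, beside 6.58% and 11.4%.

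At cact the one word found was TATCGA, part of the DNA replication-related element, which starts 1 base before the summit and is in capitals in the first stretch above. It was in 10.9% of optimal windows and 3.63% of flanking windows, and the search for it was added after it was seen to be frequent at optimal summits. The whole element, TATCGATA, was in 0 of 10 windows, beside 3.09% and 0.351%. The tub window alone held a word of the Rel factors: the narrow NF-κB word GGGNNTTCC (0.780% of optimal windows and 0.897% of flanking windows) and, overlapping it, a looser one (4.01% and 6.87%). These are the first run of capitals in the tub stretch. The second run there is GGTCACAC, a core promoter word (1.74% and 0.208%), 9 bp after the summit. The words GAGAG (10.7% and 14.7%), CAGCTG (4.40% and 5.01%) and CAGGTAG (0.468% and 0.728%) were in none of the 10. The windows had a median GC content of 38.1%, beside 36.6% for all optimal windows.

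The promoters of the 9 genes, taken as 250 bp before to 50 bp from each annotated start site, were searched for the same words, and a gene with several start sites had several chances of a match. Of the forkhead words, TGTTTAC was present in 1 gene, cact, beside 11.6% of all protein-coding genes, TAAACA in 3 (38.2%) and GACGC in 5 (28.3%). GAGAG was present in 7 of the 9 (36.3%) and CAGCTG in 4 (22.3%). The promoter windows are longer than the summit windows and lie at other places, so counts of a word are not comparable between them. The narrow NF-κB word was present in tub alone (2.85%), and the looser one in tub and nec (16.1%). GGTCACAC was present in tub alone (8.71%) and TATCGA in cact and Dif (31.3%). TATCGATA (10.2%) and CAGGTAG (2.30%) were present in none. A word in a window is a match of letters, not a bound site.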

How the data were processed

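Per the labels, chromatin of jumu-eGFP embryos was precipitated with anti-GFP in 3 biological replicates. The authors deposited peak lists in the dm6 build, each with a signal per peak and a −log10 q value; per the deposited readme files, the replicate and pooled lists are relaxed input for the irreproducible discovery rate procedure, and the optimal list passed it. Which peak caller was used, with what settings and at what depth is not given in the sources used here, and a control alignment named there was not used. Lists in dm3 were not used.

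Coordinates are 1-based. Gene models were Ensembl release 115 (BDGP6.54, in dm6 coordinates) on 6 arms, with transposable elements left out, and sequence came from RefSeq's Release 6 genome. A summit within 500 bp of any start site was called promoter, and otherwise 5′ UTR, CDS, 3′ UTR, other exon, intron or intergenic, in that order. Counts of genes used summits within 1 kb of a start site, or in the gene or within 5 kb. Values per peak are mean ± SD over replicates. With 1 group, no test was made and the replicates were not paired with anything. The text names all 9 genes, each optimal peak in them or within 5 kb or, failing one, the strongest pooled peak, the nearest gene, and every gene of the wider lists with an optimal summit. The 9 genes and the lists were chosen with earlier results of these data known; weck was not analysed here. The counting was tested on simulated summits. Python 3.11.15, numpy 2.4.6, pandas 2.3.3 and matplotlib 3.10.9 were used.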

Additional observations from a re-analysis of the deposited data

How the results depend on the processing

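Of 91 recomputed values over 15 results, 74 were called close to the value reported and 17 moved. The limits were wide: a count of 7 in place of 10 was still called close. A relative signal was called close if it shifted by less than 1 SD of the same replicates. Leaving out 1 of those 2 or 3 replicates cannot shift a mean that far, so these values were bound to stay. The 74 is therefore not a measure of stability. The 4 genes with an optimal summit at most 1 kb from a start site became 1 (cact) with the 1922 strongest optimal peaks and 1 (cact) among peaks strong in every replicate, and 1 to 3 when 1 replicate was left out, beside 15.3% to 16.5% of all genes. Without replicate 2 only cact was left, without replicate 1 pll and cact, and without replicate 3 Myd88, pll and cact; a peak then had to be among the strongest of both remaining replicates, so fewer peaks counted. The 5 genes counted over the gene and 5 kb became 3 with the 1922 strongest and 3 among peaks strong in every replicate, and 3 to 4 with 1 replicate left out. The shares of all genes were then 29.4%, 32.1% and 34.0% to 36.3%. The 10 optimal peaks became 4 with the 1922 strongest, 5 among peaks strong in every replicate and 5 to 7 with 1 replicate left out. Counted only from the start sites of the 9 genes themselves, 5 lay within 500 bp and 6 within 2 kb. Peaks matched in all 3 replicates fell from 9 to 4 when summits had to lie within 50 bp, beside 61.7% of all optimal peaks. The relative signal of pll, with an SD from 2 replicates, became 0.995 with that match. With summits within 200 bp all 10 peaks were matched in all 3 replicates, beside 96.8% of all optimal peaks. The 19 genes of the wider lists became 32 of 85 within 5 kb of a start site (40.2% of all genes) and 8 of 85 with the 1922 strongest (12.7%). The relative signal of cact was 2.72 to 3.18 with 1 replicate left out. No paired analysis was possible because there was 1 group and no comparison between groups. The unknown depth limits all of these counts: a peak missing from a list is a peak weaker than the list's lowest signal. A missing match in a replicate can also be a summit beyond the match distance. The pll-side peak had no match in replicate 3 within 100 bp but was matched in all 3 replicates within 200 bp.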
